A study of Homo sapiens with 3 samples.

Results

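The SR splicing factors are a family of proteins that direct the splicing of pre-mRNA, and 10 of their genes, SRSF1 to SRSF7 and SRSF9 to SRSF11, were examined. They were chosen by gene name among the rows placed on the primary references (reference names with no _ in them), and all 10 were found, of 39320 such rows. The RNA came from 3 libraries labelled HepG2 rep1, rep2 and rep3, with the genotype WT and without any treatment or second condition. HepG2 is an established human liver cancer cell line. The labels do not say whether the libraries came from separate cultures, so the spread between them may be technical. In each library the level of a gene is given as TPM, which is scaled for gene length and to the same total, so that genes can be compared with each other.

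SR proteins carry an RNA recognition motif near the start and a region rich in arginine and serine at the end. They bind short sequences in exons, bring the spliceosome to nearby splice sites and so decide whether an exon is kept. Several also move to the cytoplasm with mRNA and act in export and translation. Their activity is set by phosphorylation of the arginine and serine region. Many SR proteins limit their own amount by promoting the splicing of a "poison" exon, which carries a stop codon and leads the transcript to nonsense-mediated decay.

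Before the levels, the agreement of the libraries with their label was examined. All 10 genes of a list of hepatocyte markers were below 1 TPM in every library, with a summed level of 0.0571 to 0.244 TPM, and 7 of them, including ALB and APOA1, were listed at 0 in all 3. The epithelial keratins KRT8 and KRT18 had 2609.6 ± 28.6 and 2017 ± 102 TPM (SD, n = 3). The other epithelial markers were low, with CDH1 at 1.02 ± 0.0382 TPM (SD, n = 3) and EPCAM below 1 TPM in every library. Of 3 mesenchymal markers VIM had 694 ± 48.1 TPM (SD, n = 3), while COL1A2 was below 1 TPM in every library and SPARC was listed at 0 in all 3. Both blood markers were below 1 TPM. HepG2 cells are known to express ALB, AFP and the apolipoprotein genes, so the hepatocyte markers go against the label. The values below hold for libraries labelled HepG2, and whether the cells were HepG2 was not tested.

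Poison exons were read from GENCODE v44 and GRCh38, since many SR proteins are known to limit their own amount through them. The search kept exons of annotated nonsense-mediated decay transcripts that lie within an intron of the canonical transcript and hold the annotated stop codon, with the longest taken for each gene. Decay transcripts tagged as incomplete at an end were left out, and the exon had to be internal and hold the whole stop codon. Such an exon was found in 6 of 10 members, SRSF3, SRSF4, SRSF6, SRSF7, SRSF9 and SRSF11. For SRSF1, SRSF2, SRSF5 and SRSF10 no exon passed these limits, which does not show that they lack a poison exon. Their lengths were 456 bp in SRSF3, 449 bp in SRSF7, 268 bp in SRSF6, 175 bp in SRSF4, 117 bp in SRSF11 and 90 bp in SRSF9. In 3 of the 6 (SRSF4, SRSF6 and SRSF7) the length is not a multiple of 3. The 3′ splice sites of these exons are shown with 20 bases of intron and 10 bases of exon, 5′ to 3′, with the AG that ends the intron in capitals.
SRSF3 acceptor, chr6:36599801-36599830, plus strand: aaaaatgaaccccgttacAGagtcaccatc
SRSF4 acceptor, chr1:29166055-29166084, minus strand: aaatttttccttggctacAGcaacatccct
SRSF6 acceptor, chr20:43459133-43459162, plus strand: ttgatgtttcaatttgaaAGtgaccaatgg
SRSF7 acceptor, chr2:38749337-38749366, minus strand: acctggtcaaaacctttcAGgtttcttcgt
SRSF9 acceptor, chr12:120464813-120464842, minus strand: tgctctgaaatcctgcttAGaaaactatta
SRSF11 acceptor, chr1:70231839-70231868, plus strand: tttttctgtgtgctttatAGtgaagcagcc

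The stop codons that end the reading frame within these exons are shown in capitals, with 12 genomic bases before and 15 after each. In SRSF9 the stop lies so near the start of the exon that the window opens with the last bases of the intron.
SRSF3 stop, chr6:36599840-36599869, plus strand: ctcaccaccctcTGAatctgcattagccag
SRSF4 stop, chr1:29165994-29166023, minus strand: ttacaaggaaaaTGAgtgaatgtgggaatg
SRSF6 stop, chr20:43459290-43459319, plus strand: gccttttgccatTAGacgcagggtgatggt
SRSF7 stop, chr2:38749304-38749333, minus strand: agtcagtcgcctTGAttcagaatgtcacga
SRSF9 stop, chr12:120464797-120464826, minus strand: ttagaaaactatTAGgaaatggctgcagtc
SRSF11 stop, chr1:70231894-70231923, plus strand: gcttttgaaagtTGAgagcacacccctgga
The stop codon is TGA in SRSF3, SRSF4, SRSF7 and SRSF11 and TAG in SRSF6 and SRSF9. It begins at base 9 of the exon in SRSF9, base 26 in SRSF7, base 32 in SRSF3, base 48 in SRSF11, base 54 in SRSF4 and base 150 in SRSF6. GENCODE v44 lists between 1 and 6 nonsense-mediated decay transcripts for each of the 10 members. The tables give 1 value per gene, so the use of these exons in the libraries was not analysed here.

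All 10 SR genes reached 10 TPM in every library, a level that 20.7% of all gene rows reached. At least 100 TPM in every library was reached by 6 members, SRSF1, SRSF2, SRSF3, SRSF5, SRSF7 and SRSF9, and by 3.62% of all rows. The mean level ran from 71.3 TPM for SRSF10 to 335 TPM for SRSF2, with a median of 175 TPM. Among the 13753 genes whose mean reached 1 TPM, the median was 15.4 TPM. Together the 10 genes summed to 1730.5, 1699.97 and 1711 TPM in replicates 1, 2 and 3. The sum therefore differed little between libraries (1714 ± 15.5 TPM, SD, n = 3). It was 0.171% of all TPM in the libraries, and 0.207% of all TPM without the mitochondrial gene TRNC. SRSF2 and SRSF9 made up 37.6% ± 0.302 of the sum, and the 4 lowest members 18.4% ± 0.346 (SD, n = 3).

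**Figure D1:**
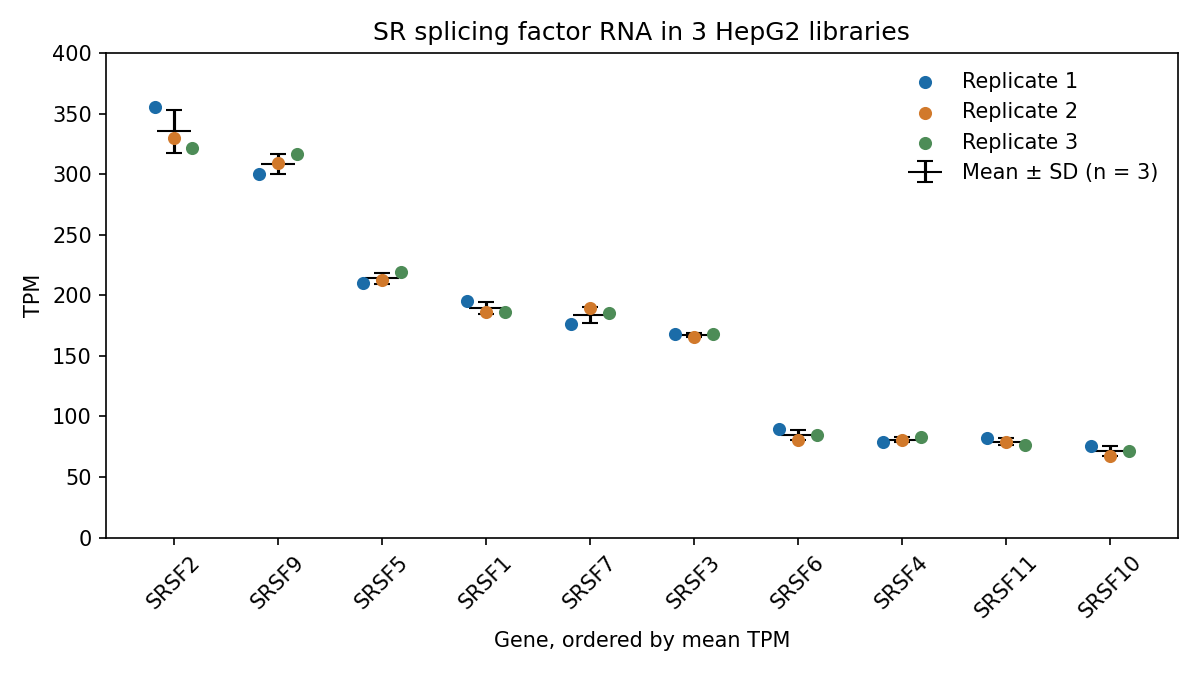
TPM (linear axis) of the 10 SR genes in replicates 1, 2 and 3 (points), with the mean and SD (bars, n = 3), ordered by mean. SRSF2 and SRSF9 lie above 300 TPM on average, and gaps separate SRSF9, at 308 TPM, from SRSF5, at 214 TPM, and SRSF3, at 167 TPM, from SRSF6, at 84.8 TPM.

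SRSF1, the founding member of the family, has a pair of RNA recognition motifs and shuttles between nucleus and cytoplasm. Its row spans 58000919 to 58007346 of chromosome 17, minus strand. It had 195, 186 and 186 TPM in replicates 1, 2 and 3, a mean of 189 ± 5.26 TPM (SD, n = 3). SRSF9, its closest relative, spans 120461672 to 120469748 of chromosome 12, also on the minus strand. It had 300.1, 309 and 316 TPM in replicates 1, 2 and 3, a mean of 308 ± 8.10 TPM (SD, n = 3). SRSF9 was thus higher than SRSF1 in 3 of 3 libraries, and the values of the pair did not overlap. The log2 ratio of SRSF1 to SRSF9, computed on TPM + 1, was -0.70 ± 0.08 (SD, n = 3). When the signs were flipped in an exact permutation test, two-sided, p was 0.25, and 0.3125 after Benjamini-Hochberg adjustment over 5 pairs. No pair can give a p below 0.25 with 3 libraries. By coverage, the mean depth of reads over a gene, the log2 ratio was -0.80 ± 0.08 (SD, n = 3). The last 2082 bp of SRSF9 overlap GATC, a gene on the plus strand with 24.5 ± 1.38 TPM (SD, n = 3). The strand setting of the counting is not stated, so reads from this stretch cannot be told apart.

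SRSF3 is the smallest SR protein and an adaptor for the export of mRNA. In GRCh38 its row runs from 36594313 to 36605600 on the plus strand of chromosome 6. Its level was 168, 165 and 168 TPM in replicates 1, 2 and 3, a mean of 167 ± 1.46 TPM (SD, n = 3). Its coefficient of variation, 0.873%, was the smallest of the 10 members and below that of 97.4% of the 8419 genes whose mean reached 10 TPM. A coefficient from 3 values is imprecise, and SRSF3 was singled out as the lowest member. The value therefore cannot be read as a trait of SRSF3. SRSF7, which is related to SRSF3 and has in addition a zinc knuckle, spans 38743599 to 38751494 of chromosome 2, minus strand. It had 176, 189 and 185 TPM in replicates 1, 2 and 3, a mean of 184 ± 6.70 TPM (SD, n = 3). SRSF7 exceeded SRSF3 in 3 of 3 libraries by a small margin, with a log2 ratio of SRSF3 to SRSF7 of -0.13 ± 0.06 (SD, n = 3, two-sided exact sign-flip permutation p = 0.25, adjusted 0.3125). By coverage the direction was the opposite. On that scale the log2 ratio was 0.62, 0.53 and 0.56 in replicates 1, 2 and 3, with SRSF3 above SRSF7 in every library.

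SRSF4, SRSF5 and SRSF6 form a group with a second, degenerate RNA recognition motif and long regions of arginine and serine. SRSF5, on the plus strand of chromosome 14 from 69767087 to 69772005, was the highest of the group. Its level was 211, 213 and 219 TPM in replicates 1, 2 and 3, a mean of 214 ± 4.57 TPM (SD, n = 3). SRSF6, on the plus strand of chromosome 20 from 43457864 to 43464243, had 89.3, 80.4 and 84.6 TPM in the same order, a mean of 84.8 ± 4.41 TPM (SD, n = 3). SRSF4, at 29147743 to 29181900 of chromosome 1 (minus strand), had 78.5, 80.6 and 82.6 TPM, a mean of 80.6 ± 2.06 TPM (SD, n = 3). The values of SRSF4 and SRSF6 overlapped, and SRSF4 was the higher in 1 library and the lower in the other 2. Both were below SRSF5 in 3 of 3 libraries.

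The log2 ratio of SRSF4 to SRSF5 was -1.40 ± 0.01 and that of SRSF5 to SRSF6 was 1.33 ± 0.09 (SD, n = 3, two-sided exact sign-flip permutation p = 0.25 for each, adjusted 0.3125). SRSF5 therefore had 2.51 times the TPM of SRSF6, with 1 TPM added to both. By coverage both differences were smaller, with a log2 ratio of -0.67 ± 0.04 for SRSF4 to SRSF5 and 0.80 ± 0.08 for SRSF5 to SRSF6 (SD, n = 3). The ratio of SRSF4 to SRSF6 was -0.07 ± 0.10 on the log2 scale (SD, n = 3), smaller than its own spread (exact sign-flip permutation p = 0.50, adjusted 0.50). By coverage SRSF4 was above SRSF6 in 3 of 3 libraries, with a log2 ratio of 0.13 ± 0.10 (SD, n = 3). The first 627 bp of the SRSF5 row overlap LOC100289511 on the opposite strand, which had 0.955 ± 0.0419 TPM (SD, n = 3).

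**Figure D2:**
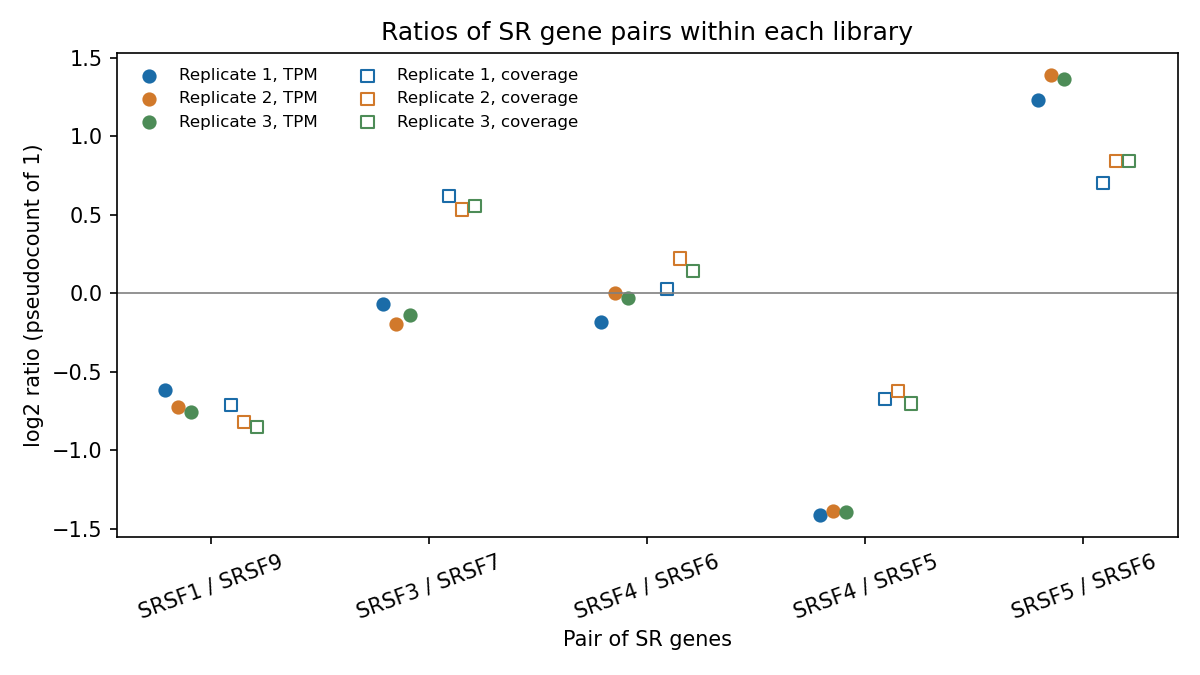
Log2 ratio (pseudocount of 1) within each library for the 5 pairs of related SR genes, by TPM (filled circles) and by coverage (open squares), with 1 colour for each replicate. SRSF3 to SRSF7 lies below 0 by TPM and above 0 by coverage in all 3 libraries, and SRSF4 to SRSF6 lies around 0 by TPM.

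SRSF2, a mostly nuclear SR protein that is mutated in myeloid cancers, had the highest mean level of the family. Its row spans 76734115 to 76737411 of chromosome 17, minus strand. Its level was 355, 330 and 321 TPM in replicates 1, 2 and 3, a mean of 335 ± 17.7 TPM (SD, n = 3). All 3 values lay above the highest value of SRSF9, 316 TPM, by a margin that varied among libraries. SRSF2 had 1.18, 1.07 and 1.02 times the TPM of SRSF9 in replicates 1, 2 and 3. The row of MFSD11, on the plus strand, covers 847 bp (25.7%) of the SRSF2 row, at its 5′ end, and had 13.9 ± 0.878 TPM (SD, n = 3). MIR636, a microRNA gene of 99 bp inside SRSF2 on the same strand, had 7.43, 9.60 and 8.85 TPM in replicates 1, 2 and 3. Reads in these stretches could have been given to either row.

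The remaining genes named SRSF were looked up after the values of the 10 had been seen. SRSF8, a copy of SRSF2, had 20.0, 17.5 and 18.4 TPM in replicates 1, 2 and 3, and SRSF12 was listed at 0 in all 3 libraries. The longest run of identical bases between the canonical transcripts of SRSF2 and SRSF8 in GENCODE v44 was 45 nt. Between any pair of the 10 members it was at most 22 nt, which is shorter than the 150 bp reads. Only exact runs were measured, so reads shared through similar stretches with mismatches were not tested. Copies named after a member, with P and a number added to its name, are listed in GENCODE v44 for 6 of the 10 genes. There are 5 for SRSF3, 2 for SRSF6 and 1 each for SRSF1, SRSF2, SRSF9 and SRSF10. Reads shared with these copies were not analysed here.

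SRSF10 differs from the other members in that it represses splicing when it is dephosphorylated, as during mitosis or heat shock. It spans 23964347 to 23980463 of chromosome 1, minus strand. It had 75.3, 67.6 and 71.1 TPM in replicates 1, 2 and 3, and its mean of 71.3 ± 3.89 TPM (SD, n = 3) was the lowest of the 10 members. SRSF11, a nuclear protein with a long arginine and serine region, lies on the plus strand of the same chromosome, from 70205682 to 70253052. It had 82.0, 79.1 and 76.5 TPM in replicates 1, 2 and 3, a mean of 79.2 ± 2.77 TPM (SD, n = 3). The lowest value of SRSF11 was above the highest value of SRSF10, so the pair did not overlap.

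In the order of mean TPM, SRSF2 was followed by SRSF9, SRSF5, SRSF1, SRSF7, SRSF3, SRSF6, SRSF4, SRSF11 and SRSF10. Of the 45 pairs of members, 41 had values that did not overlap between the genes over the 3 libraries. The same share over pairs of other genes was not computed, so the count cannot be read as a trait of the family. The 4 overlapping pairs were SRSF1 with SRSF7, SRSF4 with SRSF6, SRSF4 with SRSF11 and SRSF6 with SRSF11. Between neighbours, the largest difference in TPM was 94.3 TPM, from SRSF9 to SRSF5 (a ratio of 1.44), and the largest ratio was 1.97, from SRSF3 to SRSF6 (a difference of 82.3 TPM). By coverage the order changed. SRSF9 then came before SRSF2 (1839 ± 87.7 against 1391 ± 161, SD, n = 3), SRSF1 and SRSF3 before SRSF5 and SRSF7, and SRSF4 before SRSF6. Coverage keeps the size of each library, so its spread includes the difference in depth between libraries. SRSF11 and SRSF10 were the lowest on both scales.

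Variation between the libraries was small for every member. The range of log2(TPM + 1) over the 3 libraries lay between 0.02 for SRSF3 and 0.15 for SRSF10. None of the 10 had a range above 1, against 0.273% of the genes whose mean reached 10 TPM. The coefficient of variation was 5.45% for SRSF10, 5.27% for SRSF2 and 5.20% for SRSF6, and 3.65% or less for the other 7 members. Its median over those genes was 4.88%. The members did not share 1 highest library. SRSF1, SRSF2, SRSF3, SRSF6, SRSF10 and SRSF11 were highest in replicate 1, and the other 4, SRSF4, SRSF5, SRSF7 and SRSF9, were lowest there. The share of all genes that were highest or lowest in replicate 1 was not counted, so this split cannot be read as a trait of the members. Median-of-ratios factors, which set the libraries to a common scale over all genes, were 1.03, 0.995 and 0.976 in replicates 1, 2 and 3.

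The ratio of coverage to FPKM sets the mean depth over a gene against its level per length and library size (FPKM), and it is given here relative to the highest ratio in the same library. It separated the members more widely than the replicates. SRSF9 had a relative ratio of 1.00 in all 3 libraries. SRSF4 had 0.995, 0.997 and 0.967 in replicates 1, 2 and 3, SRSF1 had 0.937, 0.938 and 0.938, and SRSF3 had 0.885, 0.885 and 0.886. SRSF6 had 0.859, 0.856 and 0.856. These 5 genes were above the median of 0.789 over the 11965 genes with at least 1 FPKM in every library.

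The other members were below that median. SRSF2 had a relative ratio of 0.696, 0.689 and 0.696 in replicates 1, 2 and 3, SRSF5 had 0.592, 0.582 and 0.593, and SRSF7 had 0.549, 0.534 and 0.546. SRSF11 had 0.487, 0.464 and 0.494 and SRSF10 had 0.463, 0.498 and 0.471, and these were the 2 members with a mean below 0.5. Over all genes 28.9% were below 0.5. SRSF10 and SRSF11 overlapped each other and lay below the other 8 members in every library. The median of the 10 members was 0.775, close to that of all genes.

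The ratio was compared with the number of curated transcripts in RefSeq, which gives 1 for SRSF4 and SRSF9, 2 for SRSF3 and SRSF6, 3 for SRSF2 and SRSF7, 4 for SRSF1 and SRSF5, 9 for SRSF10 and 22 for SRSF11. The members with 1 transcript had the highest ratios, and those with 9 and 22 had the lowest. SRSF1, with 4 transcripts and a ratio of 0.938, lay above members with 2. Over all genes, the median relative ratio was 1.00 for 3579 genes with 1 curated transcript, 0.825 for 2170 with 2, 0.696 for 2555 with 3 or 4, 0.559 for 1841 with 5 to 9 and 0.477 for 1159 with 10 or more. The annotation that the tables were made with is not stated. Lengths of the canonical transcripts were read from GENCODE v44 but were not compared with the ratio, so their part in it was not tested. The pair SRSF3 and SRSF7, whose order differs between TPM and coverage, had relative ratios of 0.885 and 0.543 on average.

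**Figure D3:**
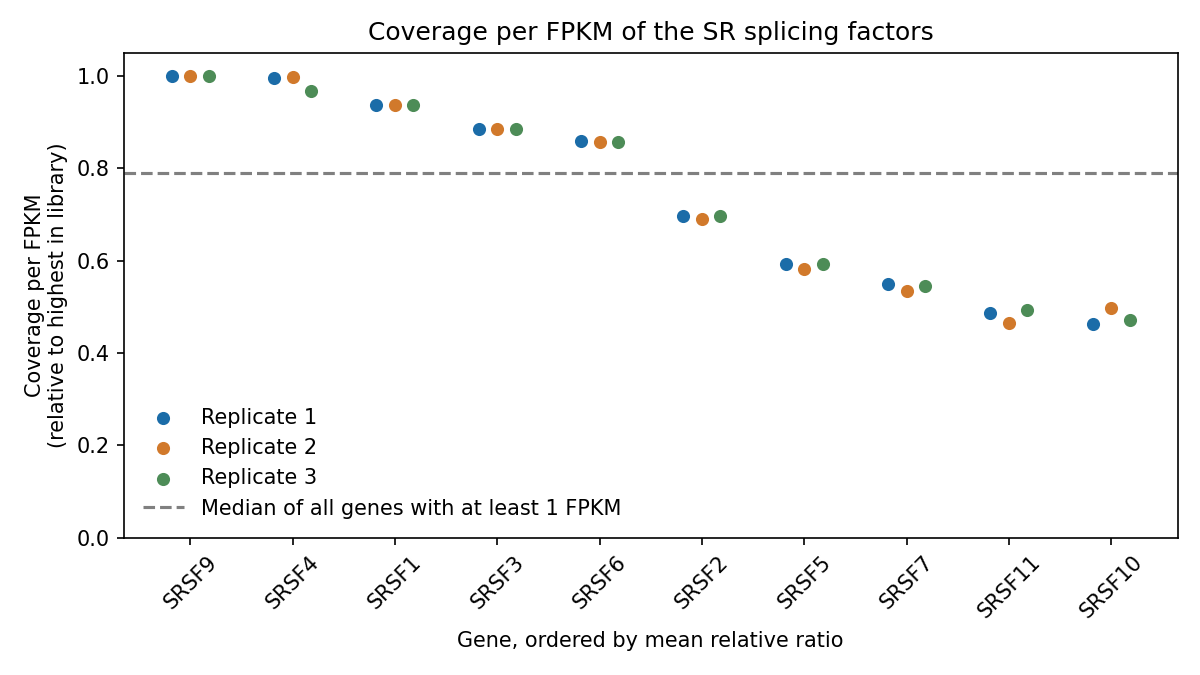
Coverage per FPKM of the 10 SR genes, as a fraction of the highest ratio in the library (linear axis from 0), in replicates 1, 2 and 3 (points). The dashed line is the median of 0.789 over genes with at least 1 FPKM in every library, and SRSF10 and SRSF11 lie lowest with means of 0.477 and 0.482.

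The genes that act on SR proteins were measured in the same libraries. SR protein kinases load phosphate onto the arginine and serine region in the cytoplasm (SRPK1 and SRPK2) and in the nucleus (the CLK kinases), and PP1 phosphatases remove it. Of 11 listed kinases and phosphatases, 10 had at least 10 TPM in every library, as did 20.7% of all gene rows. The phosphatase subunits PPP1CA and PPP1CC were the highest, with 187 ± 5.79 and 158 ± 7.92 TPM, and the kinases DYRK1A and CLK4 the lowest, with 12.7 ± 0.715 and 6.45 ± 0.387 TPM (SD, n = 3). The median of this list was 26.9 TPM. Of the 4 genes of nuclear import and mRNA export, TNPO1 had 112 ± 5.28 TPM, the export receptor NXF1 had 60.3 ± 2.18, TNPO3, which imports SR proteins, had 55.2 ± 1.74, and NXT1, the partner of NXF1, had 25.5 ± 1.11 TPM (SD, n = 3).

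SR-like and other proteins with arginine and serine regions had a median of 79.4 TPM. All 20 listed genes had 10 TPM or more in every library, as did 20.7% of all gene rows. RNPS1, of the exon junction complex, and U2AF2, which binds the polypyrimidine tract, were the highest, with 261 ± 15.5 and 234 ± 4.88 TPM (SD, n = 3). SFSWAP and SREK1 were the lowest, with 33.1 ± 0.881 and 25.6 ± 1.29 TPM (SD, n = 3). At least 100 TPM in every library was reached by 6 of these 20, by 6 of the 10 SR genes and by 3.62% of all rows. The median of the SR genes was 2.20 ± 0.0639 times the median of this list (SD, n = 3). This is a description of lists chosen with earlier results known, and it was not tested.

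The hnRNP proteins often oppose SR proteins at the same exons. All 12 listed hnRNP genes reached 100 TPM in every library, as did 3.62% of all rows, and their median was 375 TPM. HNRNPA1 and HNRNPA2B1 were the highest, with 1534 ± 38.0 and 1094 ± 25.4 TPM, and HNRNPU and HNRNPA3 the lowest, with 273 ± 15.9 and 192 ± 12.1 TPM (SD, n = 3). The median of the SR genes was 0.455, 0.469 and 0.473 times the hnRNP median in replicates 1, 2 and 3, below it in every library. The mean of the highest SR gene, SRSF2, was below 8 of the 12 hnRNP means, the nearest of which was PTBP1 with 339 ± 3.78 TPM (SD, n = 3). The values of SRSF2 and PTBP1 overlapped, and SRSF2 was the higher in replicate 1 (355 against 343 TPM).

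The snRNP proteins, which form the core of the spliceosome, were nearer to the SR genes in level. Their median was 201 TPM, and the SR median was 0.863, 0.867 and 0.880 times it in replicates 1, 2 and 3. SNRPB and SNRPD2 were the highest of the 12, with 459 ± 14.7 and 423 ± 38.8 TPM, and SNRPB2 and SNRPD1 the lowest, with 66.6 ± 1.97 and 41.2 ± 2.16 TPM (SD, n = 3). All 10 SR means fell within the range of this list.

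**Figure D4:**
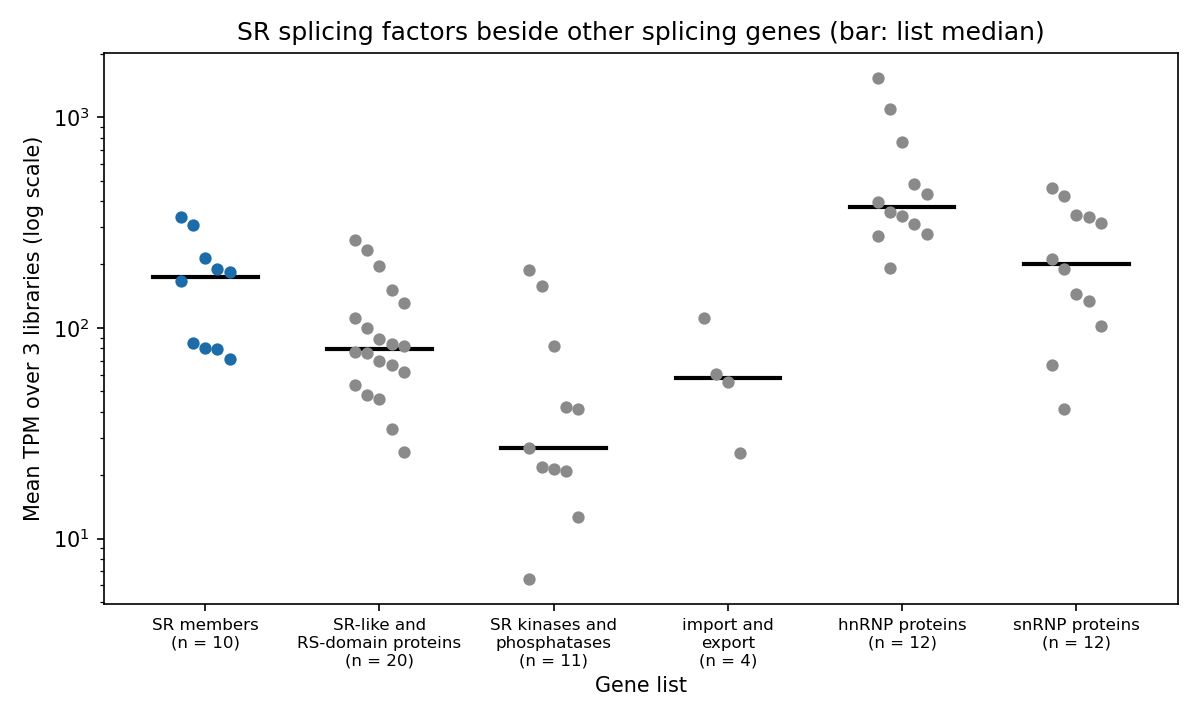
Mean TPM over the 3 libraries (log axis) of the 10 SR genes (blue points) and of 5 lists of related genes (grey points), with the median of each list as a bar. The SR median of 175 TPM lies below the hnRNP median of 375 TPM and above the median of 26.9 TPM of the kinases and phosphatases.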

How the data were processed

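Polyadenylated RNA was sequenced as 150 bp paired-end reads in 3 libraries. Per the labels and methods, the reads were filtered with FastQC 0.11.8 and Trim Galore 0.6.2 and mapped to GRCh38 with STAR 2.6.1a, and StringTie is among the tools named. Annotation and strand setting are not given in the sources used here. The authors deposited coverage as mean depth with no correction for library size. The FPKM columns that the authors deposited are corrected for length and depth. For TPM, the authors brought each library to a common total. No counts were used, so the counting error is unknown, and depth was computed only relative to another library. Coverage per FPKM, which rises with depth, reached at most 13.3, 12.8 and 11.5 in replicates 1, 2 and 3. By this maximum, replicates 1 and 2 had 1.16 and 1.12 times the depth of replicate 3.

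The tables were joined by name, strand and coordinates (43389 rows). TPM was used as deposited, and means are given with the SD over 3 libraries. The mitochondrial gene TRNC took 16.9% to 17.2% of TPM, which lowers every other gene by nearly the same factor. The 5 pairs were tested with two-sided exact sign-flip permutation tests on log2(TPM + 1). The code for the range was checked on simulated data whose changes were much larger than any range of the members. Against RefSeq for GRCh38.p14, 4 of the 10 member rows had the same start and end and 9 at least 1 of them. RefSeq transcripts were counted by accessions of curated type, with 10 of 10 members matched by symbol.

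The genes named are the 10 members, the rows that overlap them, and the 2 highest and 2 lowest of each list. PTBP1, SRSF8, SRSF12 and the markers printed were chosen after their values were seen. The members and lists were chosen with earlier results of these data known. The alternatives were leaving out each replicate, a pseudocount of 0.1, FPKM or coverage in place of TPM, other scalings and other limits on low values. Python 3.11.15, numpy 2.4.6, pandas 2.3.3, statsmodels 0.14.6 and matplotlib 3.10.9 were used.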

Additional observations from a re-analysis of the deposited data

How the results depend on the processing

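No paired analysis was possible because 1 condition leaves no groups whose replicate numbers could be matched, and the tests of gene pairs compared genes within a library. By coverage in place of TPM, the log2 ratio of SRSF3 to SRSF7 reversed from -0.13 to 0.57 and that of SRSF4 to SRSF6 from -0.07 to 0.13, while SRSF1 to SRSF9 moved from -0.70 to -0.80, SRSF4 to SRSF5 from -1.40 to -0.67 and SRSF5 to SRSF6 from 1.33 to 0.80, in the same direction. Leaving out 1 replicate at a time, the log2 ratio ranged from -0.74 to -0.67 for SRSF1 to SRSF9, from -0.17 to -0.11 for SRSF3 to SRSF7, from -0.11 to -0.02 for SRSF4 to SRSF6, from -1.40 to -1.39 for SRSF4 to SRSF5 and from 1.30 to 1.38 for SRSF5 to SRSF6. The summed TPM of the 10 genes rose from 1714 to 2144 without mitochondrially encoded genes and to 2059.8 with TRNC recomputed from its coverage, because both settings remove a share of TPM from every library, and the mean of each of the 10 genes rose with it. The median percentile of the members among genes whose mean reached 1 TPM was 94.1, against 95.7 for a minimum of 0.1 TPM, 97.9 with no filter and 93.0 by coverage. The median relative coverage per FPKM was 0.775, and 0.981 with the median of all genes as reference. With each replicate left out, the summed TPM ranged from 1705 to 1721, the median percentile from 94.0 to 94.2 and the median relative ratio from 0.774 to 0.777. The number of pairs that did not overlap ranged from 41 to 44. Leaving out a replicate cannot make a pair overlap, so this number could not fall below 41. With a minimum of 100 TPM, 6 members were counted in place of 10. The absolute depth was not computed, which limits any statement on a gene listed at 0, such as SRSF12.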
